A study of Mus musculus with 5 samples.

Results

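The comparison set the mouse hippocampus 8 h after the onset of kainic acid seizures against the hippocampus 4 h after onset. Its members were chosen by sample title: the single library titled for 8 h and both libraries titled for 4 h, 3 of the 5 samples in the series. The other samples, an untreated control and a 1 h library, were read beside them. All mice were 3-month-old males of the C57/bl6 strain with no engineered allele. Mice of the 1 h, 4 h and 8 h groups had received kainic acid (Kinate in the sample titles) at 20 mg/kg by intraperitoneal injection in PBS, and time was counted from the start of the seizure. Tissue was kept from animals that reached stage 5 of a seizure scale, and it is not stated whether a library held RNA of 1 mouse. RNA of the whole hippocampus was sequenced, so fewer cells of a type and less RNA per cell cannot be told apart. Experiments were run in the dark phase at fixed hours, and the hour at which the tissue of each library was taken is not given.

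Kainic acid opens a class of glutamate receptors and drives recurrent firing in the hippocampus. Neurons that fire first transcribe immediate early genes, many of which code for transcription factors with short-lived transcripts, and later transcribe genes for synaptic proteins, secreted factors and enzymes that shorten the signal. Glial cells respond to seizures with their own, often slower, set of transcripts. Comparing 8 h with 4 h asks which of these transcripts had gone back towards the untreated level, which were kept, and which were higher only late.

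The deposited files gave 18250114 counts in genes for 4 h library 1, 19109204 for 4 h library 2 and 16612225 for the 8 h library, against 19100374 for the control and 17744508 at 1 h. Reads that fell in no gene made up 33.1% and 25.3% of the 4 h libraries and 30.9% of the 8 h library. Mitochondrial genes held 6.88%, 6.42% and 5.82% of the gene counts of 4 h library 1, 4 h library 2 and the 8 h library, and ribosomal protein genes held 0.973%, 1.05% and 1.01%. All levels below are normalized CPM, the usual counts-per-million scale with library sizes corrected by TMM scaling.

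The tissue label was checked against marker genes. The 12 markers of hippocampal excitatory neurons summed to 2729 CPM in the control, 2222 and 2471 in 4 h libraries 1 and 2, and 2563 at 8 h, with Camk2a the most abundant at 1436, 1218, 1348 and 1294 CPM in the same order. The sum of these markers, of which Camk2a is a large part, was therefore of similar size in each of these libraries. Single members differed, and 2 of the 12, Dsp and C1ql2, were at least 2-fold higher at 8 h than each 4 h library. The 4 h libraries also stood apart from each other. The 7 markers of the choroid plexus, the tissue that secretes cerebrospinal fluid and borders the hippocampus, summed to 4022 CPM in the control, 1705 at 1 h, 30.8 in 4 h library 1, 4296 in 4 h library 2 and 3111 at 8 h. Ttr, the most abundant of them, had 3747, 1573, 16.3, 3971 and 2884 CPM. 4 h library 1 thus nearly lacked choroid plexus transcripts, and 7 of the 7 markers at 8 h lay between the 4 h libraries.

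Markers of the thalamus and habenula also differed between the libraries. Of 5 listed, 4 passed the filter, 3 were lower at 8 h than both 4 h libraries, 1 lay between and 2 were at least 2-fold lower than each. The 5 genes summed to 34.7 CPM in the control, 35.7 at 1 h, 221.8 and 87.6 in 4 h libraries 1 and 2, and 29.8 at 8 h. Prkcd, which makes up most of that sum, had 27.0, 29.1, 199.3, 79.0 and 23.8 CPM, and Pou4f1, which marks the habenula, had at most 3 counts in each 4 h and 8 h library. A longer list of 15 genes of the thalamus shares Prkcd and Tcf7l2 with the first and was chosen after their values were seen, 4 of them from the 12 largest differences downward. It summed to 188.9, 194.5, 700.9, 311.3 and 129.3 CPM. Its sum was thus highest in the 4 h libraries, which that choice favours. The part of these genes in the results was not tested.

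Of 486 genes (3.42% of 14197 compared with the control) at least 2-fold above the control in both 4 h libraries, 403 were lower at 8 h than both, a direction that choosing them on their 4 h values partly builds in. Genes for activity-regulated transcription factors (Atf3, Fosb, Fos), for synaptic and secreted proteins (Arc, Homer1, Inhba, Nptx2), for glucocorticoid targets (Sgk1, Tsc22d3) and for cholesterol synthesis (Idi1, Msmo1) were lower at 8 h than in both 4 h libraries. The genes Gfap, Serpina3n and Lcn2, all known from reactive astrocytes, and the keratin gene Krt75 kept at 8 h about the level of 4 h. Of the 29 genes of the reactive astrocyte list, 9 were lower than both 4 h libraries and 9 higher, with a median log2 fold change of -0.14. Single genes among the excitatory neuron markers, receptors and channels (Dsp, C1ql2, Grm2, Kcng1, Cacna1h) were low at 4 h and back near or above the control level at 8 h, while the medians of those lists were 0.11, -0.15 and 0.02. The neuropeptide gene Npy and the synaptic vesicle gene Sv2c were higher at 8 h than in any earlier library.

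None of the 19768 genes tested passed an adjusted p of 0.05 in the quasi-likelihood test of edgeR (Benjamini-Hochberg, 0.00%), and the smallest adjusted p was 0.363. At an unadjusted p under 0.05 the same test gave 1051 genes lower at 8 h (5.32% of those tested) and 675 higher (3.41%). DESeq2 called 101 genes lower and 28 higher at an adjusted p under 0.05, limma-voom called 0, and edgeR with library size alone as scaling called 67 lower and 53 higher. DESeq2 gave no adjusted p for 5749 of the 19768 genes, and its counts of calls leave these out. The spread behind these tests came from 1 pair of libraries, the 4 h pair, and the single 8 h library was assumed to vary like them. Those p-values measure only the spread between these samples.

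The comparison was therefore described by direction and by fold. At 8 h, 7420 genes (37.5% of 19768) were lower than in both 4 h libraries, 7131 (36.1%) were higher than in both, and 5217 lay between or level with one of them. With library size alone as scaling these counts were 4974 lower and 9596 higher, and the median log2 fold change over all genes moved from -0.02 to 0.12. Directions of small differences therefore rest on the scaling. A list is read below against the median of all genes and against these shares lower and higher.

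Among 14065 genes with at least 50 normalized counts in a 4 h or 8 h library, 285 (2.03%) were at least 2-fold lower at 8 h than each 4 h library and 132 (0.938%) at least 2-fold higher than each. Between the 4 h libraries themselves 912 of the 14065 genes (6.48%) were at least 2-fold apart, 598 of them higher in library 1 and 314 higher in library 2. Against 4 h library 1 alone 979 genes were at least 2-fold lower at 8 h and 532 higher. Against library 2 alone 323 were lower and 238 higher. The counts against a single library are of the genes that met the minimum without the other 4 h library, not of the 14065. Of the genes at least 2-fold different from each 4 h library, 31.7% were higher at 8 h. With library size alone as scaling 48.9% were, when 217 were lower and 208 higher.

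**Figure D1:**
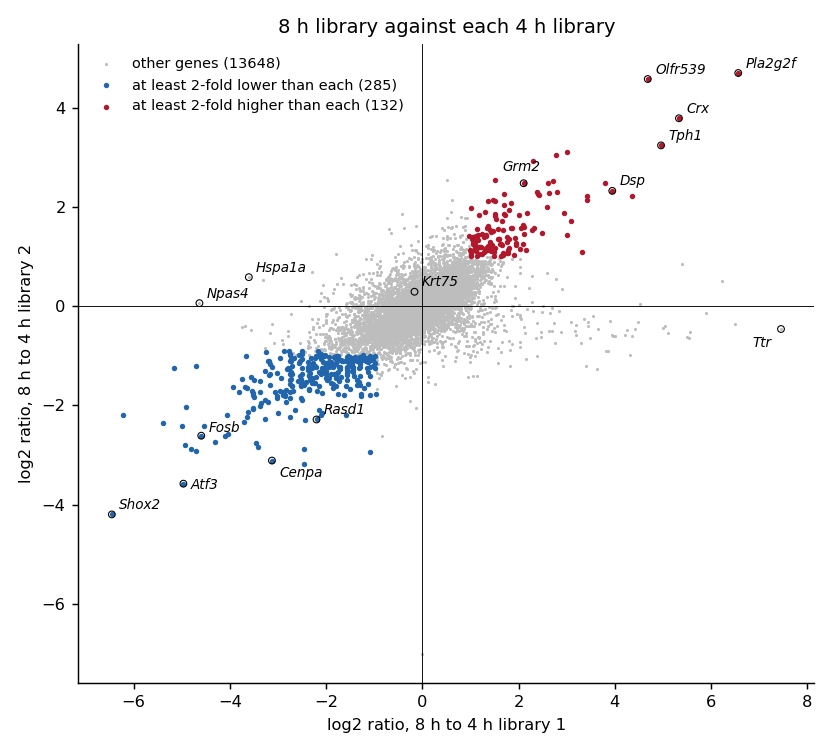
Log2 ratio of the 8 h library to 4 h library 1 (horizontal) and to 4 h library 2 (vertical) for the 14065 genes compared, 1 point a gene, drawn with a prior of 2 counts. The 285 genes at least 2-fold lower than each 4 h library are blue, the 132 at least 2-fold higher than each are red, and Ttr, Npas4 and Hspa1a lie far from 0 against library 1 alone.

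Levels were also set against the untreated control, which is 1 library, with no vehicle-injected library beside it in the series. Ratios to it therefore carry no spread between controls. Each time was read in different mice, so words such as returned or back compare libraries and do not follow animals. Of 14197 genes with at least 50 normalized counts in the control, a 4 h or the 8 h library, 486 (3.42%) were raised at 4 h, meaning at least 2-fold above the control in each 4 h library. At 8 h, 403 of the 486 were lower than both 4 h libraries, 33 were higher than both and 50 lay between. A gene raised at 4 h was said to have declined when the 8 h level was at most 1/2 of each 4 h library, and to have persisted when it was still at least 2-fold above the control and neither at most 1/2 nor at least 2 times that of each 4 h library. A gene at least 2-fold off only 1 of the 4 h libraries could thus count as persisted. By these rules 181 declined, 155 persisted and 7 were at least 2-fold higher still. Of the 181 that declined, 140 were under 2-fold above the control at 8 h, 41 were still at least 2-fold above it, 53 were below the control and 9 were at or below 1/2 of it. Without 4 h library 2 the count of declined genes was 775, and without library 1 it was 186.

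Because 4 h values both chose the raised genes and set the decline, a return towards control is partly built into these counts. Genes were therefore also chosen on one 4 h library and read on the other. Of 775 genes raised and declined by 4 h library 1 alone, 689 were lower at 8 h than library 2 and 238 at least 2-fold lower, with a median log2 ratio of -0.68, beside 7675 and 385 of all 14197 genes and a median of -0.031. Of 186 chosen on library 2 alone, 177 were lower at 8 h than library 1 and 156 at least 2-fold lower, with a median of -2.05, beside 7387 and 991 of all 14197 and a median of -0.022. Library 1 held the higher 4 h level for 418 of the 486 raised genes and 165 of the 181 declined genes, against 7008 of the 14065 genes compared. The 4 h level of the raised genes was thus mostly higher in library 1. Both readings share the single 8 h and control libraries that chose the genes, so that part of the decline is built into them too.

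In the other direction, 104 genes (0.733% of 14197) were lowered at 4 h, at most 1/2 of the control in each 4 h library. Of those, 87 were higher at 8 h than both 4 h libraries, 29 were at least 2-fold higher than each and are called recovered, and 23 were still at most 1/2 of the control. Of all genes, 36.1% were higher than both 4 h libraries and 0.938% at least 2-fold higher than each. Here too the choice on low 4 h values partly builds in a higher value at 8 h. The recovered genes included 27 within 2-fold of the control at 8 h and 13 above it. The count of recovered genes was 60 without 4 h library 1, 313 without library 2 and 45 with library size alone. Of the 285 genes at least 2-fold lower at 8 h, 104 had not been raised at 4 h, and of the 132 at least 2-fold higher, 105 had not been lowered. Of those 132 genes, 59 were at 8 h at least 2-fold above the control as well.

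**Figure D2:**
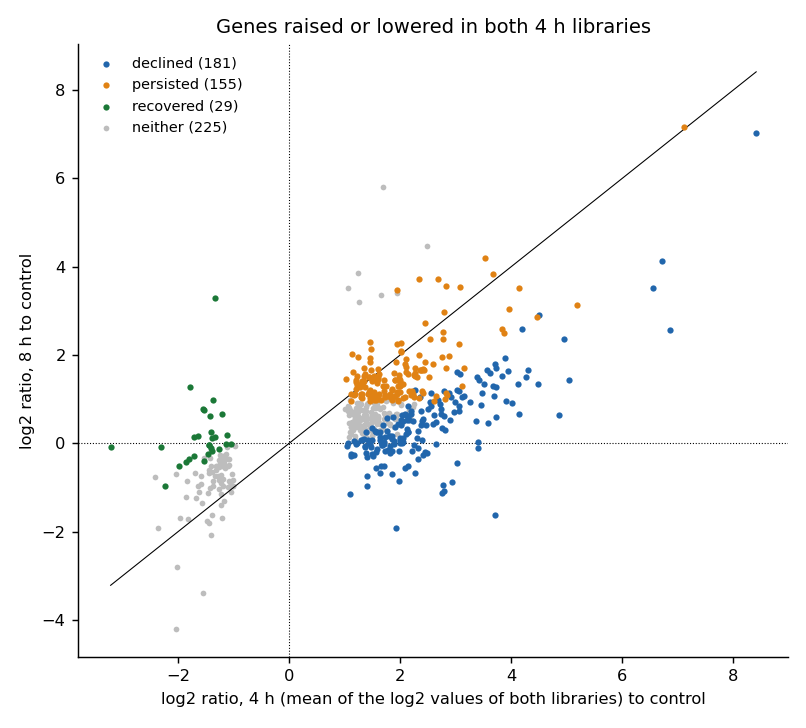
Log2 ratio to control at 4 h (horizontal, mean of the log2 values of both libraries) and at 8 h (vertical) for the 486 genes raised and the 104 genes lowered at 4 h. The line marks equal ratios, and the 181 declined genes lie below it while the 155 persisting genes spread along it.

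Transcription factors of the immediate early class had the lowest median of the function lists. Of 36 listed, 36 passed the filter, 30 were lower at 8 h than both 4 h libraries, 3 were higher, and 13 were at least 2-fold lower than each. Of the members edgeR called 0 (18 lower at an unadjusted p under 0.05) and DESeq2 called 3 lower. Their median log2 fold change was -1.39, beside -0.02 over all genes tested, and their summed level was 746 CPM in the control, 6263 at 1 h, 3844 and 1582 in 4 h libraries 1 and 2, and 954 at 8 h. The class as a whole was thus highest at 1 h, and at 8 h lay closer to the control than to either 4 h library.

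Atf3 (ENSMUSG00000026628.13), a stress-induced factor of the ATF/CREB family, had 0.653 CPM in the control, 110.3 at 1 h, 142 and 54.4 in 4 h libraries 1 and 2, and 4.45 at 8 h. The 8 h level was 32.0-fold lower than library 1 (95% counting interval 25.5 to 40.6) and 12.2-fold lower than library 2 (9.70 to 15.6), with a fitted log2 fold change of -4.43 (SE 0.71, adjusted p 0.463 in edgeR's test). It lay below both 4 h libraries but was still 6.81-fold above the control (3.76 to 13.4). These intervals, exact binomial for ratios, cover counting error only.

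Fosb and Fos, partners of Jun proteins in the AP-1 factor, had both peaked by 1 h. Fosb had 3.52 CPM in the control, 372 at 1 h, 238 and 60.2 in the 4 h pair and 9.75 at 8 h. Fos had 10.8, 999, 519, 70.4 and 17.2 CPM in the same order. Both were lower at 8 h than in either 4 h library, by 24.4-fold and 6.17-fold for Fosb and by 30.1-fold and 4.09-fold for Fos, and the 4 h libraries differed from each other more for Fos than for Fosb. Fosb was still 2.77-fold above the control at 8 h and Fos 1.59-fold.

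Some factors of this class had a lower level at 8 h than in the single control library. Nr4a2, an orphan nuclear receptor, had 49.9 CPM in the control, 424 at 1 h, 258 and 60.9 in the 4 h pair and 18.3 at 8 h. Egr4, a zinc finger factor, had 3.97, 107.7, 31.7, 12.0 and 2.45 CPM. The 8 h level was 2.72-fold below the control for Nr4a2 and 1.62-fold below it for Egr4, and Junb and Egr1 were 1.5-fold and 1.53-fold below. Both levels come from 1 library each, so the smaller of these folds cannot be told from spread between libraries. Npas4, a factor restricted to neurons and induced by calcium entry, had 3.92, 694, 130.01, 4.92 and 5.13 CPM, so that it had already returned to near the control in 4 h library 2. Its direction from 4 h to 8 h therefore differed between the 4 h libraries.

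The 3 members higher at 8 h than both 4 h libraries, Klf10, Cebpb and Id3, were each under 2-fold above them. Klf10, a factor induced by TGF-beta signalling, had 31.6 CPM in the control, 33.8 at 1 h, 76.5 and 98.9 in the 4 h pair and 114 at 8 h, and was thus raised late and kept. Cebpb had 2.91, 6.26, 4.63, 4.44 and 5.02 CPM, and 20.7% of its exon length overlaps exons on the opposite strand.

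Genes that dampen signalling were mostly lower at 8 h as well. Of 35 listed and passing the filter, 28 were lower at 8 h than both 4 h libraries, 1 was higher and 11 were at least 2-fold lower than each, with a median log2 fold change of -1.37, 0 called by edgeR (23 lower at an unadjusted p under 0.05) and 6 lower by DESeq2. Their summed level was 1165 CPM in the control, 5175 at 1 h, 5380 and 3041 in the 4 h pair and 1548 at 8 h. Errfi1, an inhibitor of the EGF receptor, had 45.4 CPM in the control, 539.7 at 1 h, 361 and 143 in the 4 h pair and 55.2 at 8 h. Its 8 h level was 6.54-fold and 2.60-fold below the 4 h libraries and 1.22-fold above the control. Rcan1, a calcineurin inhibitor, was also lower than both, by 2.34-fold and 1.36-fold.

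Rasd1, a Ras-like protein induced by glucocorticoids, had nearly the same level in both 4 h libraries, with 16.3 CPM in the control, 27.9 at 1 h, 33.9 and 36.0 in the 4 h pair and 7.30 at 8 h. The 8 h level was 4.64-fold lower than library 1 (3.83 to 5.67) and 4.93-fold lower than library 2 (4.08 to 6.005), with a log2 fold change of -2.24 (SE 0.25). The 8 h level of Rasd1 was also 2.24-fold below that of the control library. Sik1, a kinase that restrains CREB coactivators, was back at 1.06-fold the control, while Gadd45b, a stress sensor, and Pim1, a kinase, were still 2.89-fold and 3.32-fold above it. The exception was Dusp14, a phosphatase of the MAP kinases, with 22.7 CPM in the control, 41.9 at 1 h, 65.6 and 26.7 in the 4 h pair and 99.0 at 8 h.

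Synaptic and secreted effectors held the most abundant declining transcripts. Of 40 listed and passing the filter, 29 were lower at 8 h than both 4 h libraries, 3 were higher, 12 were at least 2-fold lower and 1 at least 2-fold higher, with a median log2 fold change of -1.12, 0 called by edgeR (20 lower and 2 higher at an unadjusted p under 0.05) and 4 lower and 1 higher by DESeq2. Their summed level was 2757 CPM in the control, 8417 at 1 h, 17298 and 8484 in the 4 h pair and 4587 at 8 h. The sum was highest in 4 h library 1, nearly level between 1 h and 4 h library 2, and at 8 h still above the control. Of its 23 members raised at 4 h, 11 declined and 10 persisted, beside 181 and 155 of all 486 raised genes. The list was chosen with earlier results of these data known. It includes genes the study singled out, among them Krt75, Cda, Inhba and Homer1, so its counts are not independent of that choice.

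Arc, which controls the removal of AMPA receptors from synapses, had 147.5 CPM in the control, 2022 at 1 h, 2593 and 928 in the 4 h pair and 151.6 at 8 h. It was 17.1-fold lower than library 1 (16.4 to 17.8) and 6.12-fold lower than library 2 (5.88 to 6.38), with a log2 fold change of -3.54 (SE 0.68). Arc had thus returned to 1.03-fold the control (0.975 to 1.08). Homer1, a postsynaptic scaffold whose short isoform is induced by activity, had 217 CPM in the control, 1334 at 1 h, 3764 and 1350 in the 4 h pair and 306.8 at 8 h, and the gene count adds up its isoforms. It was 12.3-fold and 4.40-fold lower at 8 h and stood at 1.41-fold the control.

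Inhba, the subunit of activin A, peaked at 4 h. It had 6.78 CPM in the control, 36.1 at 1 h, 1044 and 402 in 4 h libraries 1 and 2, and 79.5 at 8 h. It was 13.1-fold and 5.06-fold lower at 8 h but still 11.7-fold above the control (9.81 to 14.1). Nptx2, a secreted pentraxin that clusters AMPA receptors, had 17.3, 198, 721, 402 and 89.9 CPM and was 5.201-fold above the control at 8 h. Bdnf and Ptgs2, which code for a neurotrophin and for cyclooxygenase-2, were 2.22-fold and 2.53-fold above the control at 8 h after being lower than both 4 h libraries. Baz1a, a chromatin remodelling subunit, was low at 1 h (2.67 CPM) and reached 65.0 and 32.3 CPM at 4 h before 6.62 at 8 h.

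**Figure D3:**
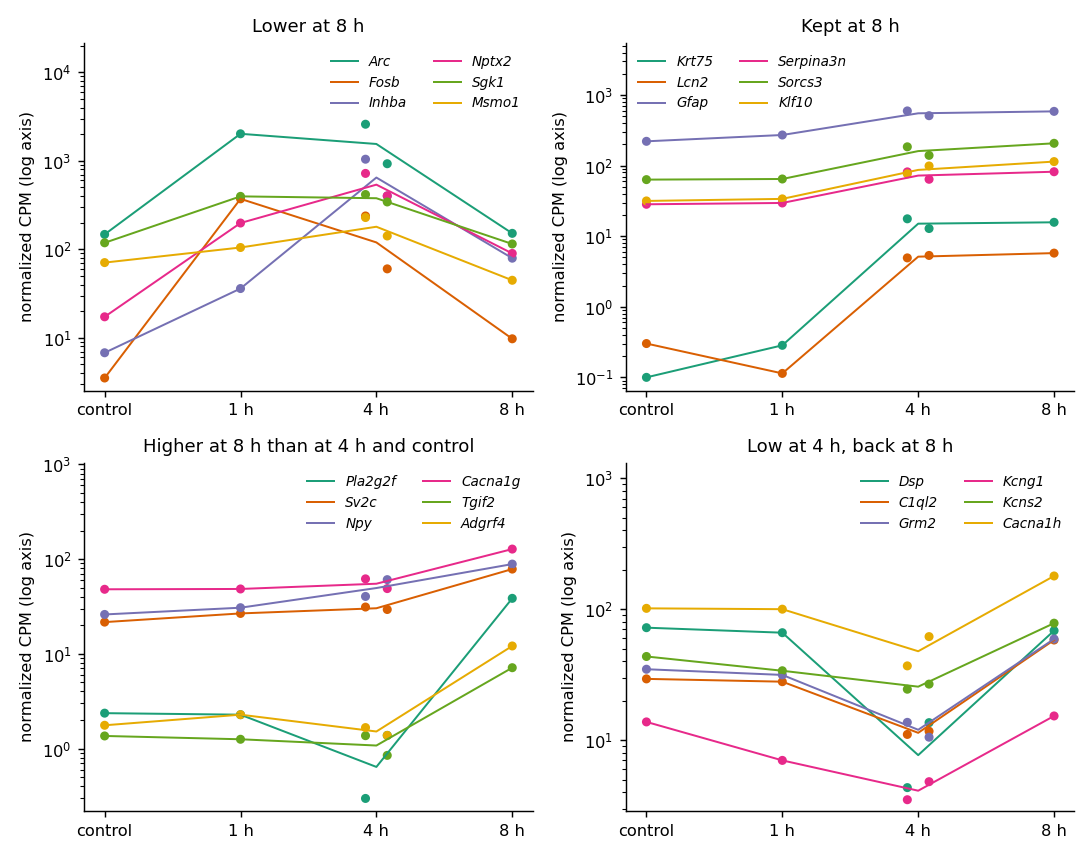
Normalized CPM (log axis) of 24 genes in each of the 5 libraries by time, with both 4 h libraries drawn as points and the line passing through their mean. Arc, Sgk1 and Msmo1 are back at or below the control at 8 h, Krt75, Lcn2 and Gfap keep the 4 h level, and a count of 0 for Krt75 in the control is drawn at an arbitrary low level.

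A neuropeptide and a vesicle gene went the other way. Npy, an inhibitory peptide of hippocampal interneurons that granule cells also make after seizures, had 26.03 CPM in the control, 30.7 at 1 h, 40.3 and 60.7 in the 4 h pair and 88.5 at 8 h. Sv2c, a synaptic vesicle glycoprotein, had 21.6, 26.7, 31.2, 29.4 and 78.4 CPM. Each was highest at 8 h, 3.40-fold above the control for Npy and 3.63-fold for Sv2c. Sv2c was 2.52-fold and 2.67-fold higher than the 4 h libraries, which lay close together, with a log2 fold change of 1.37 (SE 0.19, adjusted p 0.457 in edgeR's test).

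Other transcripts among the 12 largest declines belonged to no list. Cenpa, the centromeric variant of histone H3, had 1.21 CPM in the control, 97.5 at 1 h, 17.3 and 17.1 in the 4 h pair and 1.88 at 8 h. The 4 h libraries were nearly equal and the 8 h level was 9.18-fold (6.39 to 13.6) and 9.10-fold (6.35 to 13.4) lower, with a log2 fold change of -3.12 (SE 0.27) and an adjusted p of 0.363 in edgeR's test. Sp7, a factor best known from bone, had 1.11, 1.14, 24.8, 15.3 and 2.17 CPM, so that it was high at 4 h alone among these 5 libraries. Dntt, a DNA polymerase known from lymphocytes, had 0 counts in the control and at 1 h, 49 and 36 in the 4 h pair and 3 at 8 h. Its 8 h level was 17.0-fold lower than library 1 (5.49 to 85.3) and 11.1-fold lower than library 2 (3.52 to 56.5).

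Shox2, Tnnt1, Vipr2 and Slitrk6, also among the 12, were members of the longer thalamic list and were far higher in 4 h library 1 than in library 2. Shox2, a homeobox factor, had 8, 3, 245, 56 and 1 counts in the control, 1 h, 4 h library 1, 4 h library 2 and 8 h libraries. Tnnt1, a troponin, had 31, 13, 404, 102 and 12 counts. As for Prkcd, both 4 h libraries were above the other 3 and library 1 was the highest. Gm2974 and 2610042L04Rik completed the 12, with 3 and 8 counts at 8 h against 121 and 188 in library 1 and 38 and 69 in library 2.

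Glucocorticoid target genes were lower at 8 h nearly throughout. Of 16 listed and passing the filter, 14 were lower than both 4 h libraries, 0 were higher than both and 8 were at least 2-fold lower, with a median log2 fold change of -1.22, 0 called by edgeR (12 lower at an unadjusted p under 0.05) and 5 lower by DESeq2. Their summed level was 984 CPM in the control, 1910 at 1 h, 2025 and 1760.2 in the 4 h pair and 957 at 8 h. Sgk1, a kinase that acts on ion transport, had 119 CPM in the control, 397 at 1 h, 416 and 343 in the 4 h pair and 115 at 8 h. Tsc22d3, also called GILZ, had 115, 158, 164, 142 and 60.3 CPM. Sgk1 was thus back at the control level, and Tsc22d3 was 1.90-fold below it. Cdkn1a, an inhibitor of the cell cycle, was 3.34-fold above the control, and Fkbp5, a co-chaperone of the glucocorticoid receptor, lay between the 4 h libraries.

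Circadian clock genes were lower as well, with 13 of 16 below both 4 h libraries, 0 above both and 3 at least 2-fold lower, a median log2 fold change of -0.76, 0 called by edgeR (8 lower at an unadjusted p under 0.05) and 3 lower by DESeq2. With library size alone 12 were below both and 1 was above. Per2, a repressor of the clock, had 51.4 CPM in the control, 77.2 at 1 h, 127 and 105 in the 4 h pair and 42.7 at 8 h. Per1 had 35.9, 169, 74.1, 42.8 and 18.1 CPM, and Ciart, another repressor, had 11.2, 59.2, 18.5, 7.62 and 2.68 CPM. At 8 h Per1 and Ciart were below every other library, 1.98-fold and 4.18-fold under the control, and Nr1d1 and Dbp were 2.65-fold and 4.77-fold under it. Whether the 4 h and 8 h tissue was taken at the same hour of the day is not given, and the part of the hour in these values was not tested.

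Genes of cholesterol synthesis and uptake were lower at 8 h as a group. Of 23 listed, 22 passed the filter, 21 were lower than both 4 h libraries, 1 was higher and 7 were at least 2-fold lower, with a median log2 fold change of -1.06, 0 called by edgeR (16 lower at an unadjusted p under 0.05) and 5 lower by DESeq2. At 8 h 20 of the 22 were at or below the control level. Over the 14065 genes compared the median log2 ratio of 8 h to control was -0.015, so such a level was common among all genes. Their summed level was 1180.0 CPM in the control, 1728 at 1 h, 2643 and 1871 in the 4 h pair and 1039 at 8 h. Idi1, which isomerizes isopentenyl pyrophosphate, had 13.8, 25.2, 58.7, 31.3 and 8.61 CPM. Msmo1, a demethylase of sterol intermediates, had 70.8, 105, 229, 142 and 44.7 CPM. Both were highest in 4 h library 1, and at 8 h were 1.60-fold and 1.58-fold under the control. Sqle was also below both 4 h libraries, and Tm7sf2 was above both, by 1.20-fold and 1.21-fold.

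Reactive astrocyte genes were divided in direction, with shares near those of all genes tested (37.5% lower and 36.1% higher). Of 30 listed, 29 passed the filter, 9 were lower than both 4 h libraries and 9 higher, with a median log2 fold change of -0.14, 0 called by edgeR (3 lower at an unadjusted p under 0.05) and 0 by DESeq2, which gave 5 of them no adjusted p. Of the 10 raised at 4 h, 8 persisted and 1 declined, beside 155 and 181 of all 486 raised genes. With library size alone 7 were lower and 11 higher and the median was -0.00205. Gfap, the filament protein of astrocytes, had 221 CPM in the control, 272 at 1 h, 596 and 510.2 in the 4 h pair and 587 at 8 h. Serpina3n, a protease inhibitor, had 28.3, 29.6, 81.5, 64.1 and 82.0 CPM. For both the 4 h and 8 h libraries formed 1 high group and the control and 1 h libraries 1 low group. Emp1 and Tnc were lower at 8 h than both 4 h libraries, and Ptx3, described below, was the 1 member at least 2-fold lower than each. Slc10a6 had 24 and 13 counts at 4 h and 1 at 8 h, too few for the fold rule. Timp1, a protease inhibitor, and the small heat shock gene Hspb1 were far higher in 4 h library 1 than in library 2.

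The 8 persisting genes highest over the control at 8 h were led by Krt75, a keratin. Krt75 had 0 counts in the control, 5 at 1 h, 297 and 243 in the 4 h pair and 276 at 8 h, which is at least 104-fold above a control set at the floor of 3 counts. Lcn2, a carrier of iron-binding siderophores made by reactive astrocytes, had 6, 2, 83, 101 and 101 counts. Both were far higher at 4 h than at 1 h or in the control, and stood at 8 h near the level of 4 h. Lif, a cytokine of the interleukin-6 family, had 0.502, 1.14, 4.69, 1.06 and 6.73 CPM, and its 4 h libraries were further apart than 4 h library 1 and 8 h. Col6a4, Olfr535, Ctla2a, Tubb6 and Ccl3 completed the 8. The rule lets in genes whose 8 h level was far from 1 of the 4 h libraries. At 8 h Ccl3 was 14.4-fold lower than library 1 and 1.36-fold lower than library 2. Lif was 1.43-fold and 6.36-fold higher than libraries 1 and 2, and Col6a4 was 1.54-fold and 4.78-fold higher. For Tubb6, a tubulin, Ctla2a and Krt75 the 8 h level lay between the 4 h libraries, so that the direction rests on which of them is used.

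Cytokines, chemokines and adhesion genes were sparse. Of 25 listed, 21 passed the filter, 11 were lower at 8 h than both 4 h libraries, 3 were higher and 2 were at least 2-fold lower, with a median log2 fold change of -0.71, 0 called by edgeR (3 lower at an unadjusted p under 0.05) and 0 by DESeq2, which gave 10 of the 21 no adjusted p. Il6 and Selp had at most 3 counts in each 4 h and 8 h library. The chemokine gene Ccl4 had 3 counts in the control, 14 at 1 h, 221 and 20 in the 4 h pair and 7 at 8 h, and Ccl3 had 0, 9, 208, 22 and 15. Ccl4 and Ccl3 were high mainly in 4 h library 1. Cxcl1, another chemokine gene, had 0, 25, 36, 5 and 0 counts, at least 12.5-fold lower at 8 h than library 1, and was present at 1 h already. Ptx3, a soluble pattern receptor, was more even at 4 h (100 and 89 counts) and had 23 at 8 h, 4.53-fold (2.85 to 7.47) and 3.59-fold (2.25 to 5.95) lower.

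Stress genes were divided in direction, as were all genes tested (37.5% lower and 36.1% higher). Of 26 genes of the heat shock and unfolded protein responses, 9 were lower at 8 h than both 4 h libraries, 7 higher and 1 at least 2-fold lower, with a median log2 fold change of -0.17, 0 called by edgeR (2 lower and 2 higher at an unadjusted p under 0.05) and 1 lower by DESeq2, while with library size alone 5 were lower and 10 higher. Bag3, a partner of heat shock protein 70, had 3.67 CPM in the control, 7.68 at 1 h, 38.4 and 25.4 in the 4 h pair and 6.73 at 8 h. Creld2 and Pdia4, folding factors of the endoplasmic reticulum, were lower at 4 h than in the control and higher again at 8 h, with 16.2, 17.2, 10.3, 9.995 and 19.2 CPM for Creld2. Hspa1a, an inducible heat shock protein 70, had 93.6 CPM in 4 h library 1, 5.02 in library 2 and 7.59 at 8 h. Its 4 h level was thus high in a single library.

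Antioxidant and metallothionein genes were lower at 8 h in 12 of 18, higher in 2 and at least 2-fold lower in 1, with a median log2 fold change of -0.19, 0 called by edgeR (3 lower at an unadjusted p under 0.05) and 1 lower by DESeq2. With library size alone 8 were lower and 4 higher. Srxn1, which repairs oxidized peroxiredoxins, was the most abundant at 4 h, with 67.2 CPM in the control, 91.8 at 1 h, 720.5 and 419 in the 4 h pair and 155 at 8 h. It was 4.66-fold (4.47 to 4.86) and 2.71-fold (2.59 to 2.83) lower at 8 h and still 2.30-fold above the control. The metallothionein genes Mt1 and Mt2 were also lower than both 4 h libraries and 1.87-fold and 2.27-fold above the control, and 73.5% of the exon length of Mt2 overlaps exons on the opposite strand. Hmox1, which breaks down heme, persisted at 3.15-fold the control.

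**Figure D4:**
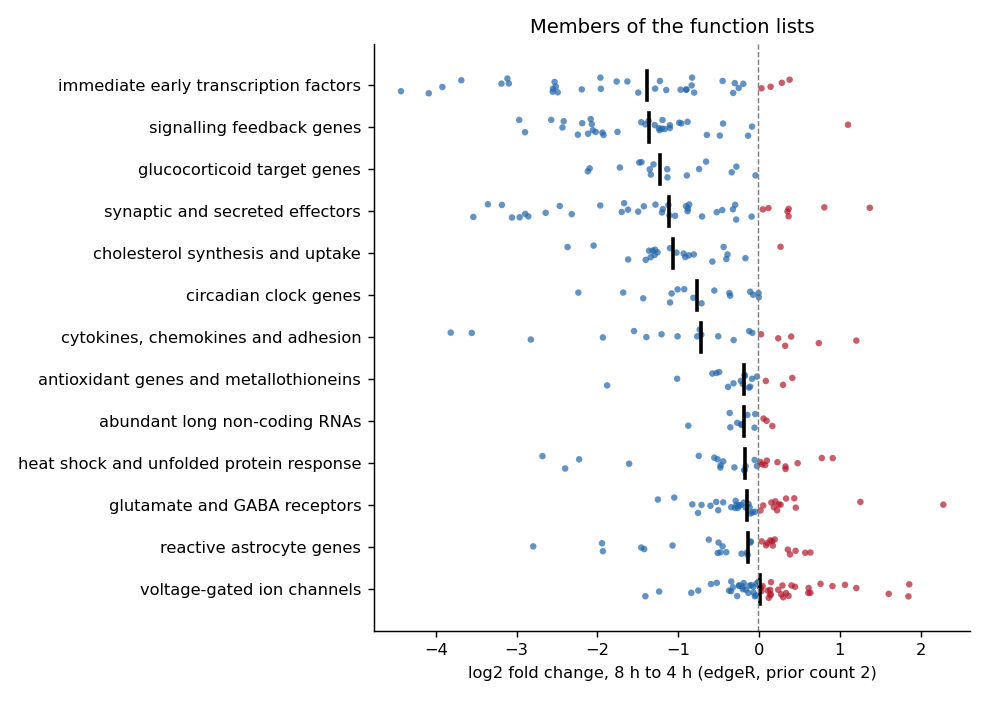
Log2 fold change from 4 h to 8 h (edgeR fit, prior count 2) of the members of 13 function lists that passed the filter, 1 point a gene, with the median of each list as a black bar. Medians run from -1.39 for immediate early transcription factors to 0.02 for voltage-gated ion channels.

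Among the genes higher at 8 h were C1ql2 and Dsp, both used as markers of dentate granule cells. C1ql2, a synaptic organizer that granule cells place on mossy fibre synapses, had 29.3 CPM in the control, 27.9 at 1 h, 11.0 and 11.7 in the 4 h pair and 58.1 at 8 h. It was 5.26-fold (4.50 to 6.19) and 4.97-fold (4.30 to 5.78) higher at 8 h than the 4 h libraries, with a log2 fold change of 2.34 (SE 0.21, adjusted p 0.363 in edgeR's test). Dsp, a desmosome protein, had 72.2, 66.1, 4.34, 13.6 and 68.5 CPM. Both had been low in each 4 h library, and at 8 h Dsp was at 0.949-fold the control while C1ql2 was 1.98-fold above it. They are 2 of the 12 excitatory neuron markers, of which 5 were higher than both 4 h libraries, 1 was lower and 6 lay between, with a median log2 fold change of 0.11.

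Glutamate and GABA receptor genes differed little as a list, in a comparison where 37.5% of all genes tested were lower than both 4 h libraries and 36.1% higher. Of 36 passing the filter, 21 were lower than both 4 h libraries, 11 higher, 1 at least 2-fold lower and 2 at least 2-fold higher, with a median log2 fold change of -0.15, 0 called by edgeR (4 lower and 3 higher at an unadjusted p under 0.05) and 1 lower and 2 higher by DESeq2, while with library size alone 13 were lower and 14 higher. Grm2, a presynaptic receptor of mossy fibres, had 34.8 CPM in the control, 31.5 at 1 h, 13.7 and 10.5 in the 4 h pair and 59.2 at 8 h. Grik4, a kainate receptor subunit, had 46.3, 40.9, 30.5, 37.9 and 81.7 CPM. Both were highest at 8 h among the 5 libraries, and Grm2 was 4.33-fold and 5.62-fold above the 4 h libraries. Gabra4, a GABA receptor subunit, ran the other way, with 102, 109, 219, 198 and 101 CPM, so that it was high at 4 h and level with the control at 8 h.

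Voltage-gated ion channel genes included 22 of 54 higher at 8 h than both 4 h libraries and 17 lower, 4 at least 2-fold higher and 0 at least 2-fold lower, with a median log2 fold change of 0.02, 0 called by edgeR (4 lower and 8 higher at an unadjusted p under 0.05) and 0 lower and 3 higher by DESeq2. Of all genes tested, 36.1% were higher than both 4 h libraries and 37.5% lower. With library size alone 31 of the 54 channel genes were higher and 11 lower. Cacna1h, a T-type calcium channel, had 101.4 CPM in the control, 99.96 at 1 h, 36.9 and 61.7 in the 4 h pair and 179 at 8 h. Kcng1 and Kcns2, modulatory potassium channel subunits, had 13.8, 6.998, 3.504, 4.81 and 15.3 CPM and 43.5, 33.9, 24.5, 26.8 and 78.2 CPM. The 3 genes were low at 4 h and above the control at 8 h. Cacna1g, another T-type channel, was near the control at 4 h and 2.66-fold above it at 8 h, while Kcna1, a delayed rectifier, was high at 4 h and back at 1.07-fold the control.

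Abundant long non-coding RNAs were nearly level, in a comparison where 37.5% of all genes tested were lower than both 4 h libraries and 36.1% higher. Of 12, 5 were lower than both 4 h libraries, 2 higher and 0 at least 2-fold different, with a median log2 fold change of -0.18, 0 called by edgeR (1 lower at an unadjusted p under 0.05) and 0 by DESeq2, while with library size alone 2 were lower and 4 higher. Mirg, the host transcript of a microRNA cluster, had 57.9 CPM in the control, 64.8 at 1 h, 114 and 72.2 in the 4 h pair and 50.6 at 8 h. Malat1, the most abundant, had 13709, 17463, 21810, 17576 and 20466 CPM. Mirg was lower at 8 h than at 4 h, and Malat1 lay between the 4 h libraries. Pantr1 and Miat were the 2 higher members, and 24.3% of the exon length of Miat overlaps exons on the opposite strand.

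Of the 12 largest differences upward, the first were in genes at low levels before 8 h. Pla2g2f, a secreted phospholipase A2, had 2.36 CPM in the control, 2.28 at 1 h, 0.297 and 1.38 in the 4 h pair and 38.5 at 8 h. It was 28.0-fold higher at 8 h than library 2 (18.9 to 43.2), 129.7-fold higher than library 1 (55.3 to 401) and 16.3-fold above the control (12.1 to 22.4). Tph1, the tryptophan hydroxylase of serotonin and melatonin synthesis outside the brainstem, had 3, 5, 6, 27 and 253 counts. Crx, a homeobox factor of photoreceptors and the pineal gland, had 0, 1, 0, 4 and 76 counts, 20.5-fold higher at 8 h than library 2 (7.68 to 77.1) and at least 24.3-fold higher than library 1. The 8 h library alone was high for each of these genes.

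Because Tph1 and Crx are known from the pineal gland, 14 genes of that gland and of photoreceptors were listed after their values were seen. Of these, 11 passed the filter, some of them through the 8 h library where they were high, so that their count in each direction is not read. The list summed to 9.14 CPM in the control, 7.97 at 1 h, 8.61 and 11.4 in the 4 h pair and 37.7 at 8 h, a sum that includes Tph1, Crx and Gnb3, which are among the 12 largest differences upward. Rom1, the most abundant over the 5 libraries together, had 3.72, 2.84, 2.61, 3.75 and 5.31 CPM, but at 8 h Tph1 was higher, with 14.4 CPM. Asmt and Gngt1 had at most 3 counts in each 4 h and 8 h library. Their part in the result was not tested.

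The other genes among the 12 with the largest differences upward, or late and above the control, were the olfactory receptor genes Olfr539 and Olfr46, the adhesion receptor gene Adgrf4, Megf6, Tgif2 and the predicted genes Gm46123, Gm47108 and Gm34567. Adgrf4 had 1.76 CPM in the control, 2.28 at 1 h, 1.66 and 1.38 in the 4 h pair and 12.1 at 8 h. Tgif2, a homeobox repressor, had 1.36, 1.25, 1.37, 0.846 and 7.13 CPM. Adgrf4 and Tgif2 were nearly level over the first 4 libraries and high at 8 h, whereas Olfr539, Megf6, Gm46123, Gm47108 and Gm34567 were lower in both 4 h libraries than in the control, and Olfr46 was higher. Of Tgif2 61.6% of the exon length overlaps exons on the opposite strand. Because the strand setting of the read counting is not given, reads of the overlapping gene may be counted there.

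Markers of the other cell types were read in the same libraries. GABAergic interneuron markers were lower at 8 h than both 4 h libraries for 5 of 6 (3 with library size alone), with summed levels of 476 CPM in the control, 867 and 683 in the 4 h pair and 483 at 8 h and Gad1 the most abundant. The 6 astrocyte markers were lower for 6 of 6, with 4313 and 3969 CPM at 4 h and 3668 at 8 h and Slc1a2 the most abundant, but with library size alone 3 were lower and 2 higher. Oligodendrocyte markers were lower for 6 of 7 (5 with library size alone), with 4219 and 5420 CPM at 4 h, 3543 at 8 h and 3536 in the control, led by Mbp. Microglial markers were level at 302.2, 302.2 and 305 CPM, with 4 of 8 lower and 4 higher, but with library size alone 0 were lower and 7 higher. None of these marker lists held a gene at least 2-fold lower at 8 h than each 4 h library.

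Endothelial markers summed to 144 and 107 CPM at 4 h and 133 at 8 h, and 4 of the 6 were higher at 8 h than both 4 h libraries and 1 lower, with a median log2 fold change of 0.51. Flt1, the most abundant, was not among the higher ones, with 70.2, 38.5 and 36.9 CPM. Pericyte markers, led by Rgs5, summed to 154, 168 and 157.5 CPM, with 3 of 5 higher and 2 lower, and oligodendrocyte precursor markers, led by Pdgfra, to 135, 164 and 126, with 1 of 3 higher and 2 lower. Red blood cell markers, led by Hbb-bs, summed to 237 and 149.7 CPM at 4 h and 182 at 8 h, with 5 of 5 between the 4 h libraries. Striatal markers, led by Ppp1r1b, summed to 41.6, 61.3 and 48.7 CPM, with 3 of 4 lower than both. Leukocyte markers, led by S100a9, summed to 1.96, 1.69 and 2.40 CPM. Hypothalamic markers summed to 0.594, 0.317 and 0.685 CPM, of which Avp held 0.178, 0.0529 and 0.570. Cd3e, Ly6c2, Ms4a1, Hcrt and Oxt had at most 3 counts in each of these libraries. The part of these lists in the results was not tested.

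**Figure D5:**
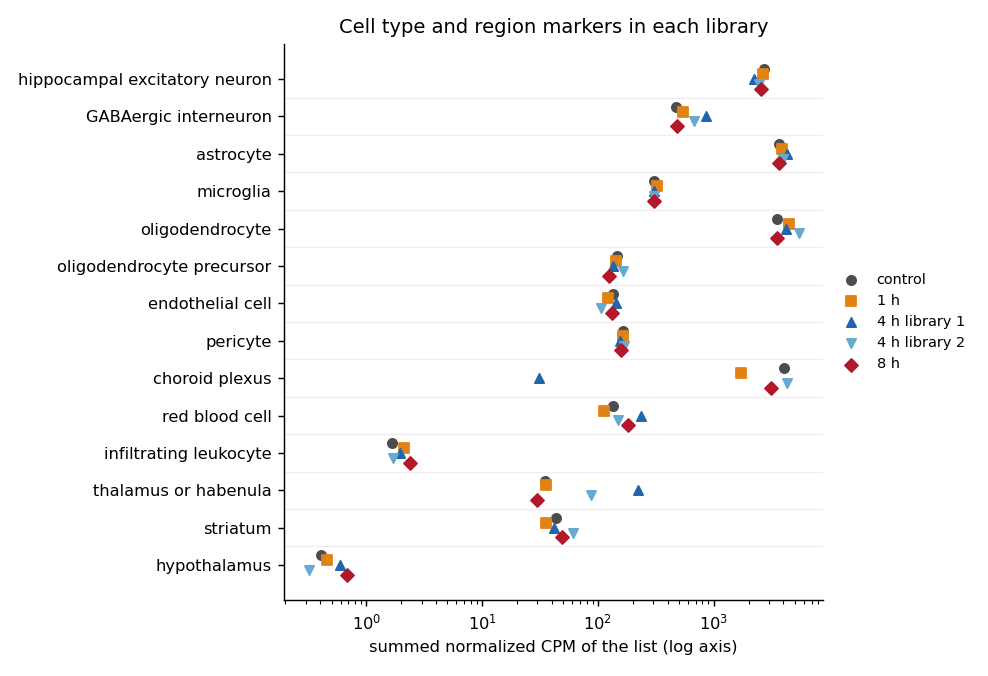
Summed normalized CPM (log axis) of 14 marker lists in each of the 5 libraries. Choroid plexus markers are at 30.8 CPM in 4 h library 1 and at least 1705 in each other library, and thalamus or habenula markers are at 221.8 and 87.6 CPM in the 4 h libraries and at most 35.7 in the others.

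Length and type of gene, which the rule did not use, were set beside those of all genes compared. In each group the median span was shorter than the 23.9 kb of all genes compared, at 18.2 kb for the genes at least 2-fold lower at 8 h, 18.7 kb for those at least 2-fold higher, 13.9 kb for declined, 11.1 kb for persisting and 11.5 kb for recovered genes. The share coding for proteins was 84.5%, 82.6%, 83.3%, 67.7% and 69.0% in the same order, against 89.3%. The median exon length was 3.83, 4.31, 3.49, 3.28 and 4.36 kb, against 4.49 kb. All 5 groups also had a lower level in the control, with medians of 5.43, 4.65, 3.67, 1.51 and 7.39 CPM against 24.6 CPM, so that length and type cannot be told apart from low expression here.

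Promoters were read for motifs of factors that respond to activity. RefSeq windows of 300 bases (250 before to 50 after the start, build GRCm38.p6) were matched by symbol to 114 of the 181 declined genes, 82 of the 155 persisting genes and 10234 of the 14065 genes compared. Motifs were searched on both strands: CRE (TGACGTCA), AP-1 (TGANTCA), E-box (CACGTG) and the serum response element CArG. The CRE letters do not contain the AP-1 letters. AP-1 letters were in 14.8% of the 155 windows of declined genes and 14.7% of the 102 windows of persisting genes, against 4.94% of windows of all genes compared and 7.81% of the 32851 windows in the table. E-box letters were in 13.5% and 6.86%, against 9.77% of windows of genes compared and 7.15% of all. CRE letters were in 3.87% and 2.94%, against 3.05% and 1.79%, and CArG in 2.58% and 4.90%, against 1.28% and 1.63%. Windows of genes at least 2-fold higher at 8 h held AP-1 letters in 7.22%, E-box letters in 6.19% and neither CRE nor CArG letters in any of 97. A match is a description, not a site or a cause.

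The promoters of 4 genes that were lower at 8 h are shown because each holds a motif named above, and they were chosen after their values were seen. Each is the 250 bases before the start, 5′ to 3′ on the strand of the gene, with the motif in capitals. That of Errfi1, at chr4:150854820-150855069 on the plus strand, holds a CRE. Those of Bag3 (chr7:128523333-128523582, plus strand) and Srxn1 (chr2:152105274-152105523, plus strand) hold 1 and 2 AP-1 motifs. That of Ciart (chr3:95882229-95882478, minus strand) holds 3 E-boxes, the motif that clock activators bind.
Errfi1: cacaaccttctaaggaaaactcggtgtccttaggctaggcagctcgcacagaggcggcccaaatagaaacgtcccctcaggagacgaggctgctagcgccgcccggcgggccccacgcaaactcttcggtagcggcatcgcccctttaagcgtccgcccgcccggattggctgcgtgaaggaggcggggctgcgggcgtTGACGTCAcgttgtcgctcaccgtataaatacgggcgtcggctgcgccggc
Bag3: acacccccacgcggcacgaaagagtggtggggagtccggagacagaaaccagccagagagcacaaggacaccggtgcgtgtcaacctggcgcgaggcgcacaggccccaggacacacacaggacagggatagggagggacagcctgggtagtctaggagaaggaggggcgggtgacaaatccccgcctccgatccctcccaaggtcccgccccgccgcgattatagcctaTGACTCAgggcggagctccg
Srxn1: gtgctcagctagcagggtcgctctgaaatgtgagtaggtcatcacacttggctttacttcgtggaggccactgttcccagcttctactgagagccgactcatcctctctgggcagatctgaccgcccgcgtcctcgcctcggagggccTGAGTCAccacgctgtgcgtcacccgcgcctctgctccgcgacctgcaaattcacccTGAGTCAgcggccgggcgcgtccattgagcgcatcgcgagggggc
Ciart: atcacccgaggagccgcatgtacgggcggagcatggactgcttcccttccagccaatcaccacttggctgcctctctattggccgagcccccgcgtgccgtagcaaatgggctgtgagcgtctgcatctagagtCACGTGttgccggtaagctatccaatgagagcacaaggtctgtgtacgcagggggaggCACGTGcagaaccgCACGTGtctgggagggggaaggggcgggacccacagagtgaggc

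AP-1 letters were also present in promoters of genes that did not decline. The promoter of Lif, which persisted, holds 1 (chr11:4257318-4257567, plus strand), and that of Adgrf4, which was higher at 8 h alone, holds 2 (chr17:42692285-42692534, minus strand). They are shown for contrast with Bag3 and Srxn1, whose transcripts had returned most of the way to the control by 8 h.
Lif: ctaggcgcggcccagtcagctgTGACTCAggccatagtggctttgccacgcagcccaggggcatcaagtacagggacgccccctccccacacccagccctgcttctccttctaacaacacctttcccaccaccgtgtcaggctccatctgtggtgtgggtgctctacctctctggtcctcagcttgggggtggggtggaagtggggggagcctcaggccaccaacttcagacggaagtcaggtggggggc
Adgrf4: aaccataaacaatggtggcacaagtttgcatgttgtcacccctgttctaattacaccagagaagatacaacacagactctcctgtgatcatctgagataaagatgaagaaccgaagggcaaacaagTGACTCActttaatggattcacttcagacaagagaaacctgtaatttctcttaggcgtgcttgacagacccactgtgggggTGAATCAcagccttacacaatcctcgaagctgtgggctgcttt

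Of the 8 genes that the study had chosen from exon arrays and examined by sequencing, Errfi1, Inhba and Homer1 declined by the rule used here, and Krt75 and Cda persisted. Cda, a cytidine deaminase, had 10, 3, 185, 129 and 63 counts and was lower at 8 h by 3.06-fold and 1.90-fold while still 7.15-fold above the control. Tpm1, a tropomyosin, was 1.38-fold and 1.12-fold lower at 8 h and Rcan1 2.34-fold and 1.36-fold lower. These counts add up all isoforms of a gene, while the study singled the 8 genes out for the use of particular exons. A small fold of the whole gene thus does not speak for a single exon. Dclk1, a kinase of microtubules, had 727 CPM in the control, 1016 at 1 h, 1776 and 1151 in the 4 h pair and 1193 at 8 h. It was thus lower at 8 h than library 1 alone, and without that library its log2 fold change was 0.051 in place of -0.30.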

How the data were processed

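Total RNA of mouse hippocampus had been made into libraries with a stranded kit. The authors aligned reads with STAR 2.5.1b to GRCm38.p4 and counted them with HTSeq. The deposited values are counts of reads per gene (unit: count), 55385 identifiers a library, of which 55144 were found in GENCODE M21. The strand setting of the counting is not given in the sources, the count used was that of the third column, and lines for unassigned reads were dropped and gave the share of reads in no gene. Counts of the 5 libraries were filtered (filterByExpr), scaled by TMM and fitted by edgeR 4.0.16 (R 4.3.3) with its quasi-likelihood test, 8 h minus 4 h, Benjamini-Hochberg over 19768 genes, threshold 0.05, with 1 residual degree of freedom, a biological coefficient of variation of 0.238 and a prior count of 2. DESeq2 1.42.0 and limma 3.58.1 were run as other tools. The fold rules and the minimum of 50 normalized counts at the mean library depth were descriptions with no test. A count of 0 was read as at most 3 counts. Ratio intervals are 95% exact binomial (scipy 1.17.1).

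Genes were named by rule: the 12 largest differences in each direction by the smaller of the ratios to the 4 h libraries (prior of 2 counts), the 8 persisting and the 8 late genes highest over control, 2 to 6 members of each of 13 function lists with those that moved the other way, and the 8 genes singled out by the study. Other members of the lists named in the text (Id3, Nr4a2, Junb, Egr1, Npas4, Bdnf, Ptgs2, Fkbp5, Dbp, Gfap, Serpina3n, Timp1, Hspb1, Hspa1a, Hmox1, Malat1) and the 2 longer thalamic and pineal lists were chosen after their values were seen. 14 marker lists were summed for each library. Some members of the lists are not reported here by name. The samples, genes and lists were chosen with earlier results of these data known. Alternatives were other scaling, filters, tools, folds, minimum counts, and leaving out each 4 h library.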

Additional observations from a re-analysis of the deposited data

How the results depend on the processing

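The count of genes called, 0 as reported, was 120 with library size alone, 957 with no filter on low counts and 129 with DESeq2. It was 0 with median-of-ratios factors, with TMM without the most abundant genes, with at least 10 counts in every library, with limma-voom and with the 4 h and 8 h libraries alone. Leaving out a 4 h library leaves no residual degree of freedom, so that the count of calls then has no value. No paired analysis was possible because only the 4 h condition has more than 1 library.

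The count of genes at least 2-fold lower (285) was 181 at a minimum of 200 normalized counts, 763 at 1.5-fold, 85 at 3-fold and 323 to 979 when 1 of the 4 h libraries was left out. The count at least 2-fold higher (132) was 208 with library size alone, 255 and 65 at minimums of 20 and 200 counts, 588 at 1.5-fold, 43 at 3-fold and 238 to 532 without 1 of the 4 h libraries. Declined genes (181) numbered 468 at 1.5-fold, 54 at 3-fold and 186 to 775 without 1 of the 4 h libraries. Persisting genes (155) numbered 278 and 67 at minimums of 20 and 200 counts, 347 at 1.5-fold, 54 at 3-fold and 139 to 145 without 1 of the 4 h libraries. Recovered genes (29) numbered 45 with library size alone, 52 and 14 at minimums of 20 and 200 counts, 220 at 1.5-fold, 3 at 3-fold and 60 to 313 without 1 of the 4 h libraries. Looser or stricter folds and minimums admit more or fewer genes by construction. The cause of the other shifts was not tested.

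Of 107 genes named by rule, 103 kept the direction of their log2 fold change under each alternative with a value. That count is largely built in by the choice of genes. Those named for the largest differences, as late genes or from the lists all lay on the same side of both 4 h libraries. Leaving out 1 of these libraries could hardly turn them. When 1 of the 4 h libraries was left out, the value of Krt75 ran from -0.16 to 0.29, of Ctla2a from -0.22 to 1.14, of Tubb6 from -1.46 to 0.21 and of Dclk1 from -0.57 to 0.051. Krt75 and Ctla2a turned without KA_4h replicate 2, and Tubb6 and Dclk1 without KA_4h replicate 1. Past the threshold were 44 of the 107 with library size alone, 72 with no filter and 36 with DESeq2, which gave 11 of the 107 no adjusted p. Depth limits genes with few counts, as for Shox2, whose ratio to 4 h library 1 rests on 1 count at 8 h and has a counting interval of 45.4 to 10116, and the single 8 h library limits every comparison.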
